A study of Danio rerio with 8 samples.

Results

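Aminoacyl-tRNA synthetases are the enzymes that attach each amino acid to its tRNA. The genes described here are the rows of the count table whose symbol has the form of a synthetase name, together with eprs, tarsl2 and the scaffold gene aimp2. The rule found 37 of the 36351 rows. By their names, 21 encode enzymes of the cytosol, 14 encode mitochondrial enzymes (symbols ending in 2), 1 encodes a threonyl-tRNA synthetase-like protein (tarsl2), and 1 encodes a scaffold of the complex in which several cytosolic enzymes assemble (aimp2). The symbols aimp1a and aimp1b, also in the rule, matched no row under those names. All 37 genes passed the filter on low counts.

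The libraries came from pooled whole embryos of zebrafish (Danio rerio) at 26 hours post fertilisation (hpf). There were 4 libraries labelled wild-type and 4 labelled MZ osgep G177A/G177A, called mutant here, where MZ stands for maternal-zygotic, so that both the mother and the embryo carried only this allele. No other treatment is given for either genotype, and embryos came from single as well as group crosses. Library totals ran from 21290897 to 27675043 counts after rounding. Nothing in the labels says that the pools came from separate clutches, and the p-values therefore reflect only how far these pools differ, which may be partly technical. The labels give the replicate number no meaning beyond naming a library.

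A cell holds at least a pair of charging systems. Cytosolic synthetases serve the translation of nuclear messages, and a second set, also encoded in the nucleus, is imported into mitochondria to serve the mitochondrial genome. osgep encodes the catalytic subunit of KEOPS, the complex that adds threonylcarbamoyladenosine beside the anticodon of tRNAs for codons with A in first place. In mammals, uncharged tRNA is known to activate the kinase GCN2, and the transcription factor ATF4 downstream of it is known to bind many cytosolic synthetase genes.

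The targeted gene, osgep (ENSDARG00000045846), measured 16.1, 20.4, 17.1 and 23.2 CPM (counts relative to the library total, scaled by TMM, the trimmed mean of M values) in wild-type libraries 1 to 4 and 13.8, 8.38, 10.8 and 10.0 CPM in mutant libraries 1 to 4. Each mutant library lay below all wild-type ones, with a log2 fold change of -0.84 (SE 0.18, edgeR adjusted p = 0.00826). Counts were not split by allele, so a lower total says nothing of which allele a library carried.

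Of the 21 cytosolic synthetase genes, 19 were higher in the mutant libraries and none was lower, while of the 14 mitochondrial genes 1 was higher, 1 was lower and 12 did not pass. All 21 fitted cytosolic changes were above 0, and DESeq2 also called 19 of them higher and 0 lower. The threonyl-like gene tarsl2, kept in a class of its own and so not among the 21, had a fitted change of -0.24 and was not called. A gene counts as higher or lower where its p from the quasi-likelihood test of edgeR, adjusted by Benjamini-Hochberg over the 22467 genes tested, is under 0.05. Over all genes tested, 32.2% were called, 15.8% as higher and 16.3% as lower. The median log2 fold change was 1.46 for the cytosolic genes, -0.0070 for the mitochondrial genes and 0.0042 for all genes tested. A called rise of at least 2-fold was found in 16 of the 21 cytosolic genes and in no mitochondrial gene, against 7.62% of all genes tested. The 19 called cytosolic genes also had every mutant library above every wild-type library, as did 16% of all genes tested.

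**Figure D1:**
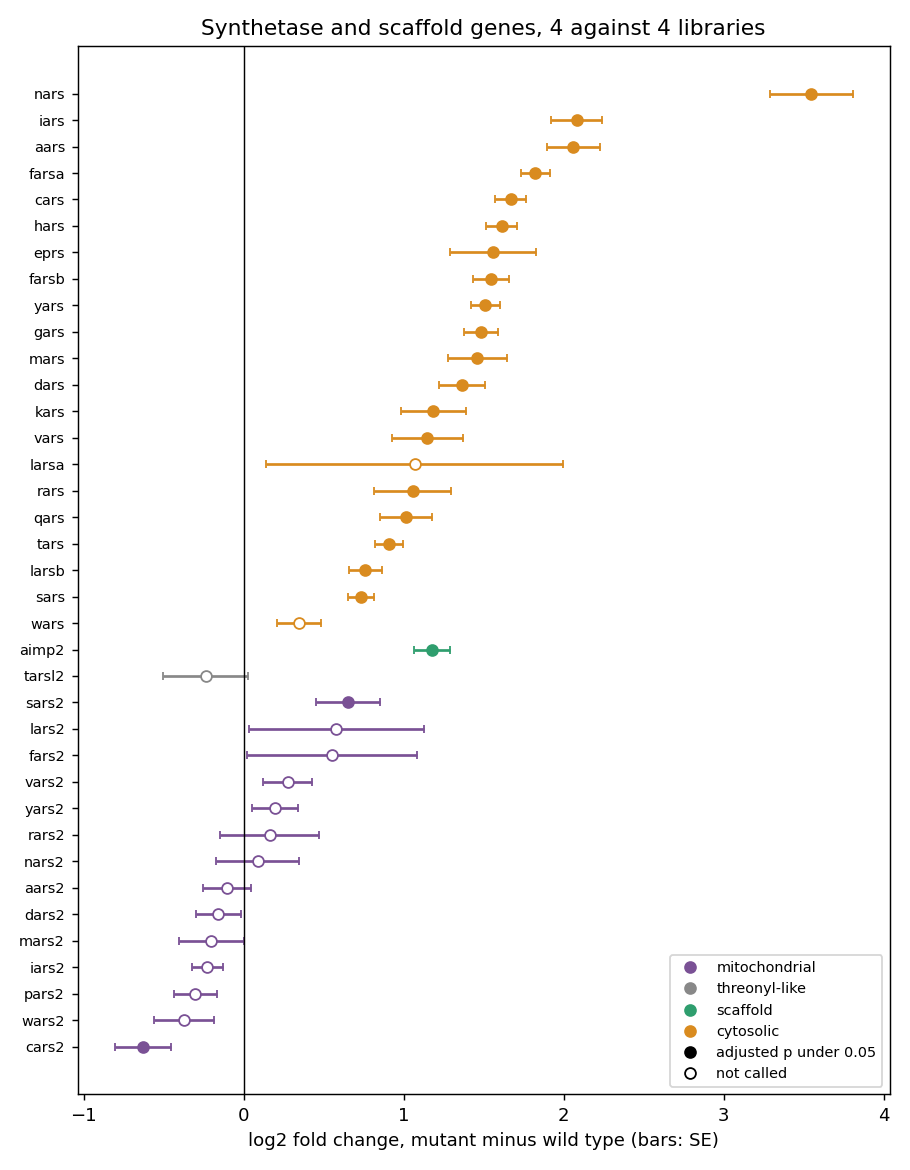
Log2 fold change of each of the 37 genes, mutant minus wild type, with its SE as a bar; filled points have an adjusted p under 0.05 and open points do not. The cytosolic genes lie between 0.34 and 3.55, all to the right of 0, and the mitochondrial genes lie between -0.63 and 0.65 on both sides of it. The threonyl-like gene tarsl2, in its own class, lies at -0.24.

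The summed level shows the same contrast in every library. The cytosolic genes together measured 1790.3, 2033, 1741 and 2496 CPM in wild-type libraries 1 to 4 and 5382, 6116, 6144 and 6127 CPM in mutant libraries 1 to 4. The mean went from 2015 ± 345 CPM to 5942 ± 374 CPM (SD, n = 4), a ratio of 2.95. The lowest mutant library stood above the highest wild-type library. The mitochondrial genes together went from 171 ± 7.39 to 164 ± 7.04 CPM (SD, n = 4), and the genotypes overlapped. A sum of CPM weights each gene by its transcript length as well as its abundance, since no gene lengths were used.

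**Figure D2:**
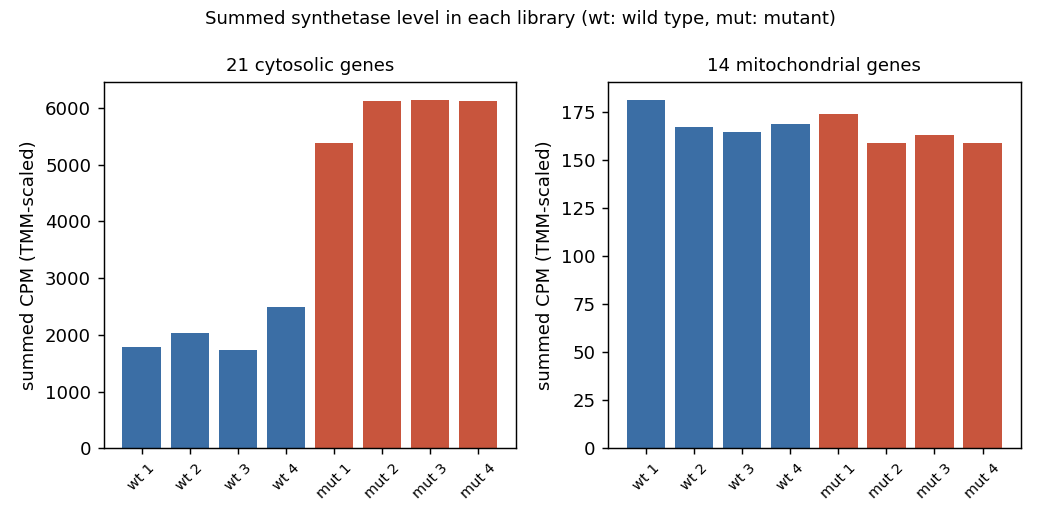
Summed CPM of the 21 cytosolic genes (left) and the 14 mitochondrial genes (right) in each of the 8 libraries, 1 bar per library. The mutant bars on the left reach 5382 to 6144 CPM against 1741 to 2496 CPM in wild type, while the bars on the right stay between 159 and 182 CPM.

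The share of counts from cytoplasmic ribosomal protein genes differed between libraries of the same genotype. These genes were taken by symbol, as rpl or rps followed by a digit, which can take in other genes and miss some. The share was 14.1%, 10.5%, 13.0% and 8.04% in wild-type libraries 1 to 4 and 14.5%, 7.30%, 8.83% and 9.93% in mutant libraries 1 to 4. Within wild type the cytosolic sum was highest in library 4, which had the lowest ribosomal protein share, and within the mutant it was lowest in library 1, which had the highest. Mutant library 1 measured 5382 CPM and wild-type library 4 measured 2496 CPM. The part of the ribosomal protein share in these sums was not tested. Tissue markers also moved with genotype, beside 15.8% of all genes tested called higher and 16.3% called lower. All 6 skeletal muscle markers fell, their sum going from 4085 to 6330 CPM across wild-type libraries to 1014 to 1224 CPM across mutant libraries. Of 6 neuron markers 4 fell (996 to 1257 CPM, and 608 to 734 CPM), and all 3 tested of 5 lens markers fell (13.6 to 23.8 CPM, and 0.821 to 1.05 CPM). Of the lens markers not tested, crygm2d1 had 0 counts in all mutant libraries and 0 to 2 counts in wild-type libraries. The other, mipb, had 8, 3, 14 and 15 counts in wild-type libraries 1 to 4 and 1, 0, 0 and 2 in mutant libraries 1 to 4. Of the 4 epidermal and the 4 erythroid markers 1 each rose, epcam and gata1a, and of the 4 yolk syncytial layer markers 3 were tested and 0 passed. The sums of these 3 lists overlapped between genotypes, at 12250.4 to 17406 and 11409 to 16694 CPM for epidermis, 82.3 to 385 and 142 to 243 CPM for erythroid cells, and 134 to 1519 and 1069 to 4395 CPM for the yolk syncytial layer. In the yolk syncytial layer the overlap came from wild-type library 4. There apoa1b measured 102.6, 92.8, 107.7 and 908 CPM in wild type and 1380, 3357, 1044 and 831 CPM in the mutant (edgeR adjusted p = 0.0612). apoa2 and fabp1b.1 likewise had wild-type libraries 1 to 3 below every mutant library, and ttr, not tested, had 1 to 4 counts. The part of tissue composition in the synthetase results was not tested. In whole embryos, a different share of a tissue and a different amount of RNA per cell cannot be told apart.

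The largest cytosolic change belonged to nars (ENSDARG00000061100), which encodes asparaginyl-tRNA synthetase. It was singled out after its values were seen. Wild-type libraries 1 to 4 held 39.4, 57.8, 38.6 and 82.0 CPM, and mutant libraries 1 to 4 held 571, 667, 659 and 648 CPM. The mutant level was thus far above the wild-type range in every library, at 11.7-fold on the fitted scale (log2 fold change 3.55, SE 0.26, adjusted p = 4.33e-05). The next largest among the genes that passed were iars, for isoleucine, at a log2 fold change of 2.08 (SE 0.16), and aars, for alanine, at 2.06 (SE 0.17). iars measured 93.2, 110.3, 92.6 and 145 CPM in wild type and 432, 484, 469 and 480.2 CPM in the mutant. aars measured 136, 159, 130.1 and 198 CPM in wild type and 526, 695, 692 and 683 CPM in the mutant. Neither gene overlapped between genotypes.

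The 6 cytosolic genes with the smallest p were farsa, cars, hars, yars, gars and farsb, all with tight replicates. Choosing by p favours genes of small spread, so this tightness is partly set by the choice. farsa (ENSDARG00000098825) and farsb (ENSDARG00000016864) encode the catalytic and the other subunit of phenylalanyl-tRNA synthetase, which works as a tetramer of both. farsa measured 67.8, 75.2, 67.9 and 76.0 CPM in wild type and 262, 232, 263 and 259 CPM in the mutant (log2 fold change 1.82, SE 0.09, adjusted p = 4.56e-06). farsb measured 53.2, 56.2, 50.6 and 69.2 CPM in wild type and 154, 169, 173 and 173 CPM in the mutant (log2 fold change 1.54, SE 0.11, adjusted p = 4.28e-05). Both subunit genes rose, and neither overlapped between genotypes. The ratio of farsa to farsb counts, looked at after the values were seen, was 1.28, 1.34, 1.34 and 1.097 in wild type and 1.70, 1.37, 1.52 and 1.50 in the mutant, without overlap and untested.

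cars (ENSDARG00000036164), the cysteinyl enzyme gene, measured 49.4, 45.5, 45.4 and 57.1 CPM in wild type and 155, 162, 157 and 155 CPM in the mutant. The mutant libraries differed from each other by less than 10 CPM, and the rise was 3.18-fold (adjusted p = 1.12e-05). hars (ENSDARG00000003693), for histidine, measured 146, 144, 133 and 149.7 CPM and then 487, 401, 430.0 and 430.4 CPM (3.06-fold, adjusted p = 1.48e-05). yars (ENSDARG00000035913), for tyrosine, measured 78.4, 81.3, 73.8 and 85.4 CPM and then 247, 206, 229 and 225 CPM (2.85-fold, adjusted p = 1.50e-05). For both genes every mutant library was above every wild-type library. The name table calls the row hars HARS2, so its place among the cytosolic genes rests on the symbol in the count table. No row matched the symbol hars2, so which compartments this histidyl gene serves was not settled here. gars (ENSDARG00000059070), for glycine, measured 167, 180.5, 163 and 204 CPM and then 516, 467, 494 and 520.3 CPM (2.80-fold, adjusted p = 3.70e-05). In human cells the counterparts of gars and kars each make both the cytosolic and the mitochondrial enzyme from 1 gene. kars, for lysine, measured 191, 262, 206 and 309 CPM in wild type and 392, 592, 597 and 621 CPM in the mutant. Its log2 fold change was 1.19 (SE 0.20, edgeR adjusted p = 0.00273). Both gars and kars are already counted among the cytosolic genes, and kars was singled out after its values were seen. Their rises are therefore no separate result about genes that serve both compartments.

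**Figure D3:**
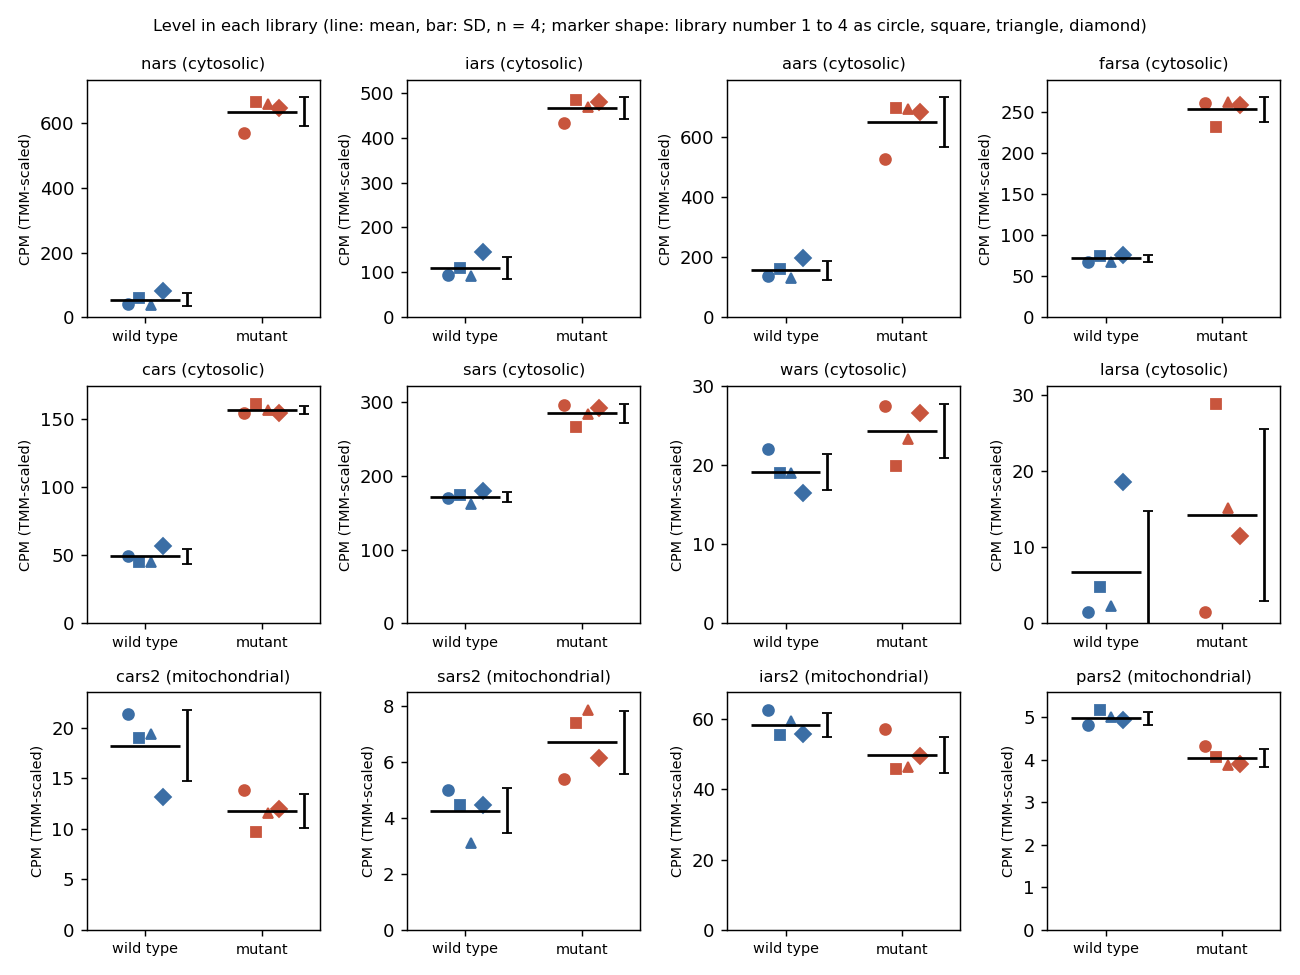
CPM in each library for 8 cytosolic and 4 mitochondrial genes, with the mean as a line, the SD as a bar (n = 4) and a marker shape for each library number; the y axes start at 0 and differ between panels, and the wild-type bar of larsa reaches below its axis. The mutant points lie above all wild-type points for nars, iars, aars, farsa, cars, sars and sars2, below them for pars2, and overlap them for wars, larsa, cars2 and iars2.

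The other cytosolic genes that passed rose by 2.94-fold or less. eprs, a fused enzyme for glutamate and proline, went from 152 ± 55.0 to 447 ± 99.1 CPM, and mars, for methionine, from 58.6 ± 14.4 to 161 ± 23.5 CPM (SD, n = 4). dars, for aspartate, went from 97.9 ± 20.4 to 252 ± 12.5 CPM, and vars, for valine, from 65.7 ± 21.3 to 146 ± 23.8 CPM. These 4 rose by 2.22-fold to 2.94-fold. rars, for arginine (49.5 ± 19.3 to 103 ± 11.0 CPM), and qars, for glutamine (55.7 ± 12.5 to 113 ± 13.8 CPM), stood near a doubling. The smallest rises that passed were those of tars, for threonine, at a log2 fold change of 0.91 (SE 0.09), larsb, a leucyl enzyme gene, at 0.76 (SE 0.10), and sars, for serine, at 0.73 (SE 0.08). Even for sars the genotypes stood apart, with 162 to 179 CPM in wild type and 267 to 296 CPM in mutant libraries. The weakest evidence among the 19 was that for rars, with an adjusted p of 0.010.

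Both cytosolic genes that did not pass overlapped between genotypes. wars (ENSDARG00000100954), for tryptophan, measured 22.1, 19.1, 19.0 and 16.5 CPM in wild type and 27.5, 19.9, 23.4 and 26.6 CPM in the mutant (log2 fold change 0.34, SE 0.14, adjusted p = 0.0879). Only mutant library 2 lay inside the wild-type range, and without it the test passed (log2 fold change 0.43, adjusted p = 0.0379). larsa (ENSDARG00000090988), the other leucyl gene, measured 1.53, 4.74, 2.24 and 18.6 CPM in wild type and 1.56, 28.8, 15.2 and 11.5 CPM in the mutant. Its libraries were spread over more than 10-fold within each genotype (log2 fold change 1.07, SE 0.93, adjusted p = 0.424). The low larsa libraries were wild-type 1 and 3 and mutant 1, which had ribosomal protein shares of 13.0% to 14.5%, and the highest were mutant 2 and wild-type 4, with 7.30% and 8.04%. A fit with that share as a covariate was chosen after seeing the data, and it called 25% of all genes higher and 26.9% lower. Both genes passed in it, wars at 0.42 (SE 0.09, adjusted p = 0.00214) and larsa at 0.42 (SE 0.14, adjusted p = 0.0295). The fitted change of larsa without that covariate ran from 0.48 without mutant library 2 to 2.32 without wild-type library 4.

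**Figure D4:**
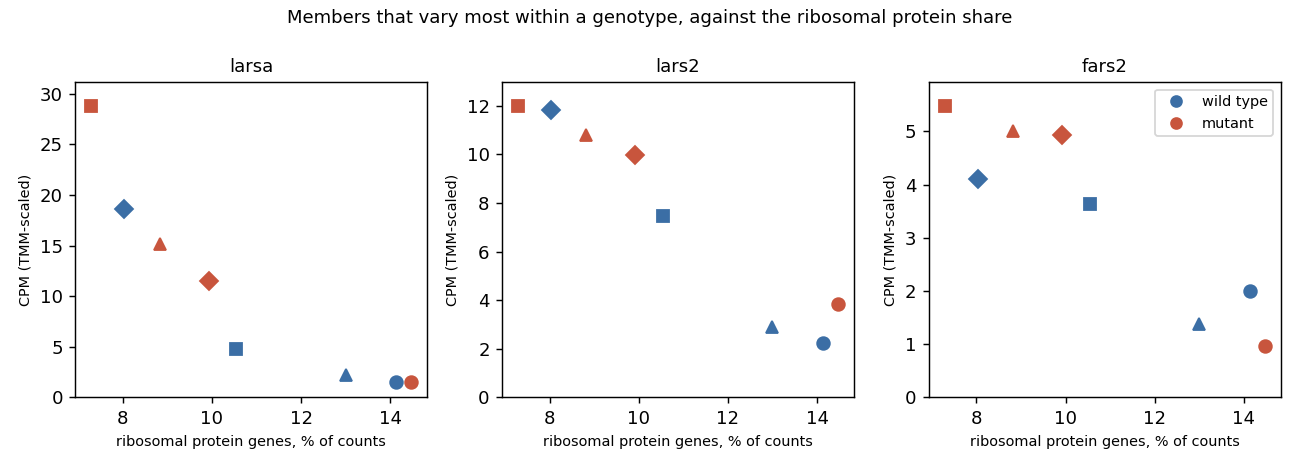
CPM of larsa, lars2 and fars2 in each library (y axis) against the percent of counts from cytoplasmic ribosomal protein genes (x axis), with blue for wild type, red for mutant and a marker shape for each library number. Each gene is low in the 3 libraries with a share of 13.0% or more and higher in the other 5, in both genotypes.

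Subgroups of the cytosolic genes were formed from knowledge of the enzymes rather than from values, and in each of these most genes rose. The threonyl-like gene tarsl2, of class II, was in none of them (log2 fold change -0.24, not called). By its amino acid it would belong with the first group below. Among the 7 cytosolic enzymes whose amino acids are carried by tRNAs for codons with A in first place, and so include substrates of KEOPS (iars, mars, tars, nars, kars, sars and rars), 7 rose with a median log2 fold change of 1.19. Among the other 14, 12 rose with a median of 1.50. This group therefore holds both the largest change of the cytosolic genes, that of nars, and the smallest that passed, that of sars. Of the class I enzymes, which share a Rossmann-fold catalytic domain, 9 of 11 rose (median 1.15), and of the class II enzymes 11 of 11 (median 1.54), with eprs counted in both. Of the 9 genes whose enzymes belong to the vertebrate multisynthetase complex 8 rose (median 1.19), and of the 12 genes of free enzymes 11 rose (median 1.53). Of the mitochondrial genes, 1 of the 5 for amino acids of the first kind rose, and none of the other 9. This split follows the amino acids of the cytosolic grouping, not the tRNAs of mitochondria, so it does not mark substrates of KEOPS. These counts stand beside 15.8% of all genes called higher, and no difference between subgroups was tested.

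The scaffold genes of the multisynthetase complex did not move alike. aimp2 (ENSDARG00000018903) measured 68.7, 67.5, 70.0 and 58.2 CPM in wild type and 174, 127, 148 and 149 CPM in the mutant (log2 fold change 1.18, SE 0.11, adjusted p = 0.000181). Every mutant library was above every wild-type library. By the synonyms in the RefSeq table, aimp1a matched the row aimp1 and aimp1b the row zgc:101853, both found after the table was seen and not counted among the 37. aimp1 rose from 54.2 ± 9.19 to 103 ± 11.0 CPM (adjusted p = 0.00138), while zgc:101853 averaged 75.5 ± 18.4 and 53.1 ± 17.4 CPM and did not pass, with overlapping genotypes (adjusted p = 0.160). The third scaffold gene, eef1e1, fell, with 92.3, 95.1, 94.2 and 82.1 CPM in wild type and 69.7, 61.5, 67.6 and 72.9 CPM in the mutant (log2 fold change -0.42, SE 0.09, adjusted p = 0.00673). tarsl2 (ENSDARG00000092774), named tars3 in the name table, measured 16.3, 13.2, 13.4 and 7.95 CPM in wild type and 15.3, 7.72, 9.23 and 10.9 CPM in the mutant. It overlapped and did not pass (log2 fold change -0.24, SE 0.27, adjusted p = 0.546), whereas tars rose.

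Of the mitochondrial genes, sars2 rose and cars2 fell, each close to the threshold. sars2 (ENSDARG00000102736), for mitochondrial serine, measured 4.98, 4.46, 3.10 and 4.46 CPM in wild type and 5.39, 7.40, 7.85 and 6.14 CPM in the mutant, with 65 to 205 counts per library. The genotypes did not overlap (log2 fold change 0.65, SE 0.20, adjusted p = 0.0349). cars2 (ENSDARG00000078546), for mitochondrial cysteine, measured 21.4, 19.0, 19.4 and 13.2 CPM in wild type and 13.9, 9.68, 11.6 and 11.9 CPM in the mutant. Wild-type library 4 lay within the mutant range (log2 fold change -0.63, SE 0.18, adjusted p = 0.0245). Leaving out single libraries ended both calls without wild-type library 2 or 3 and without mutant library 2, 3 or 4. It ended that of cars2 also without wild-type library 1, and that of sars2 also without wild-type library 4. The adjusted p of the lost calls ran from 0.0592 to 0.0682 for cars2 and from 0.0509 to 0.0989 for sars2, with the direction kept. With library totals in place of TMM the adjusted p of sars2 was 0.0580.

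The mitochondrial genes with the smallest p among those that did not pass were iars2, pars2 and wars2. iars2, for isoleucine, measured 62.6, 55.4, 59.5 and 55.7 CPM in wild type and 57.1, 45.8, 46.5 and 49.6 CPM in the mutant (log2 fold change -0.23, SE 0.10, adjusted p = 0.105). pars2, for proline, measured 4.81, 5.17, 5.00 and 4.93 CPM in wild type and 4.33, 4.06, 3.87 and 3.89 CPM in the mutant (log2 fold change -0.30, SE 0.14, adjusted p = 0.123). All pars2 mutant libraries lay below wild type, a pattern found in 17.6% of all genes tested. wars2, for tryptophan, measured 6.07, 6.54, 7.33 and 6.42 CPM and then 6.90, 4.06, 4.60 and 4.82 CPM (log2 fold change -0.37, SE 0.19, adjusted p = 0.169). Without mutant library 1, iars2 and wars2 passed (log2 fold changes -0.30 and -0.55, adjusted p = 0.0231 and 0.0207). iars2 also passed with library totals (adjusted p = 0.0315) and in the fit with the ribosomal protein covariate (adjusted p = 0.0216). The other 9 mitochondrial genes had log2 fold changes between -0.20 for mars2 and 0.58 for lars2, with adjusted p from 0.206 for vars2 to 0.831 for nars2. Among them yars2 passed as higher in 1 of the 15 alternative fits (edgeR adjusted p = 0.0185).

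lars2 and fars2, for mitochondrial leucine and phenylalanine, had the widest spread of the mitochondrial genes. lars2 measured 2.23, 7.44, 2.91 and 11.8 CPM in wild type and 3.83, 12.0, 10.8 and 9.96 CPM in the mutant. fars2 measured 2.01, 3.64, 1.38 and 4.11 CPM in wild type and 0.968, 5.49, 5.02 and 4.93 CPM in the mutant. As with larsa, wild-type libraries 1 and 3 and mutant library 1 were the low ones. Their log2 fold changes were 0.58 (SE 0.55) and 0.55 (SE 0.53), and in the fit with the covariate 0.31 and 0.087, neither of which passed. A row with the symbol EARS2 in capitals, for mitochondrial glutamate, fell outside the pattern of the rule, averaged 9.24 ± 1.96 CPM and then 10.3 ± 3.92 CPM, and was not called (adjusted p = 0.703).

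The cytosolic and mitochondrial enzymes of the same amino acid were then set against each other in each library. The ratio of their counts does not depend on the scaling between libraries, and it was compared between genotypes with an exact two-sided permutation test on the log2 scale, for which 4 against 4 libraries allow no p below 0.0286. Of 14 amino acids with both enzymes, 10 had a higher ratio in every mutant library than in any wild-type library, each at p = 0.0286 in the exact permutation test, the smallest possible. None had a lower ratio in every mutant library. The 14 p-values are unadjusted. Separation of the genotypes was common in these data, since 16% of all genes tested were higher and 17.6% lower in every mutant library, and no such share was computed for ratios of other genes.

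The ratio of nars to nars2 was 26.2, 29.8, 22.2 and 31.0 in wild type and 298, 275, 275 and 408 in the mutant. The ratio of iars to iars2 was 1.49, 1.99, 1.56 and 2.60 in wild type and 7.56, 10.6, 10.1 and 9.67 in the mutant, and that of cars to cars2 was 2.31, 2.39, 2.34 and 4.34 and then 11.1, 16.7, 13.5 and 13.0. These 3 amino acids had the largest shifts, with mean log2 differences of 3.52, 2.33 and 2.29. For cysteine both genes had passed, in opposite directions, but the call of cars2 was lost in 6 of the 15 alternative fits. The ratio also shifted for alanine (2.17), proline (1.89, eprs over pars2), methionine (1.68), aspartate (1.54), tyrosine (1.32), valine (0.90) and tryptophan (0.74). wars and wars2 had not passed separately, but their ratio was 3.63, 2.91, 2.59 and 2.57 in wild type and 3.98, 4.88, 5.07 and 5.50 in the mutant, with no overlap.

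The exceptions were serine, leucine, phenylalanine and arginine. For serine, where both enzymes rose, the ratio of sars to sars2 was 34.0, 38.8, 51.9 and 40.0 in wild type and 54.7, 35.9, 36.1 and 47.5 in the mutant (exact permutation p = 0.800). For leucine, larsa and larsb together over lars2 gave 30.1, 10.6, 23.0 and 8.79 and then 30.3, 12.8, 13.3 and 13.6 (exact permutation p = 0.971), with the high values in the libraries of high ribosomal protein share. For phenylalanine, farsa and farsb together over fars2 gave 59.6, 35.9, 84.3 and 35.2 and then 420.4, 72.7, 86.6 and 87.3 (exact permutation p = 0.0571). The genotypes overlapped because wild-type library 3, with 29 fars2 counts, lay above mutant library 2. The highest phenylalanine ratio came from mutant library 1, which had 23 fars2 counts. For arginine, rars over rars2 gave 7.69, 14.0, 10.3 and 19.3 and then 12.3, 44.3, 25.1 and 28.7 (exact permutation p = 0.0857).

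**Figure D5:**
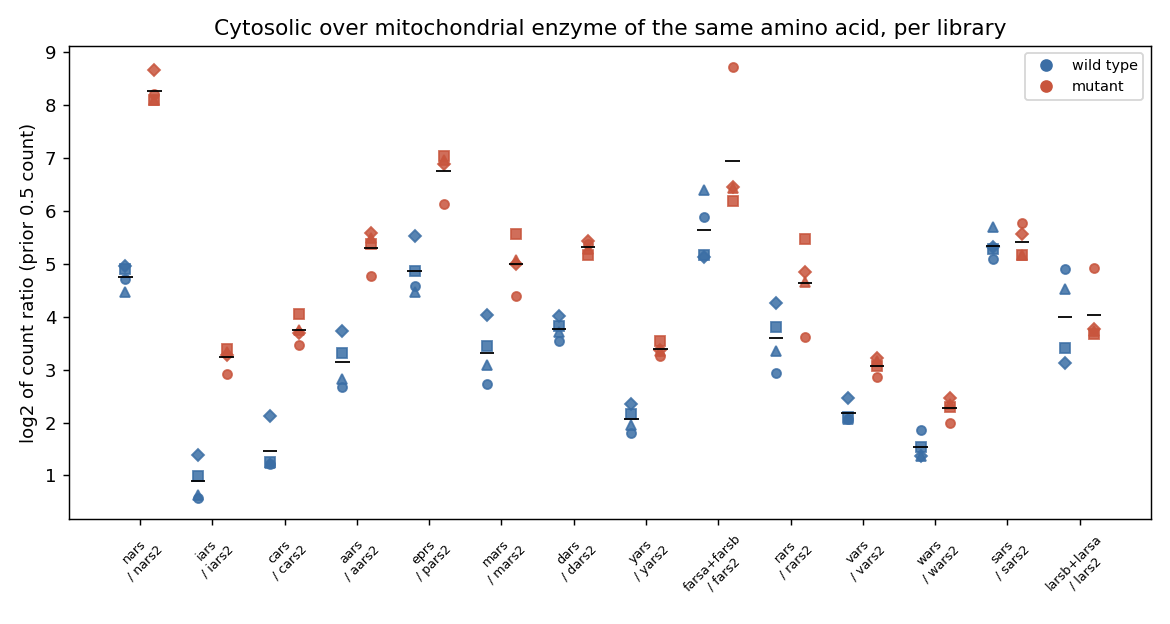
Log2 of the cytosolic over the mitochondrial count for 14 amino acids in each library, with wild type in blue, mutant in red, a marker shape for each library number, the mean as a line, and pairs ordered by the difference of the means. Since no lengths were used, heights compare between genotypes within a pair, not between pairs; 10 pairs do not overlap, and those of farsa and farsb, rars, sars, and larsa and larsb do.

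Partner genes of tRNA charging outside the synthetase family were counted in the same way. Of 24 listed genes 22 were tested, of which 5 rose and 4 fell, with a median log2 fold change of 0.014. These counts are near the shares over all genes tested, 15.8% higher and 16.3% lower, so they are not a result about the partner genes as a group. The largest rise was that of eef1a1a, an elongation factor that brings charged tRNA to the ribosome. It had 1.62, 1.37, 2.00 and 0.627 CPM in wild type and 40.0, 15.0, 21.7 and 23.1 CPM in the mutant (log2 fold change 4.16, SE 0.42, adjusted p = 0.000219). The genotypes were far apart for this gene, but the far more abundant row of the same factor, eef1a1l1, averaged 15805 ± 1443 CPM and then 17501 ± 2442 CPM, and was not called (adjusted p = 0.579). Reads of such similar genes may have been divided between rows. eif2s1b, a subunit of the factor that brings the initiator tRNA, rose from 178 ± 18.5 to 357 ± 44.7 CPM. The others that rose were secisbp2, for selenocysteine insertion, and dtd2 and dtd1, which remove wrongly charged amino acids from tRNA. dtd1 was the weakest of them, with an adjusted p of 0.0442 and overlapping genotypes.

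Besides eef1e1, 3 partner genes fell. The mitochondrial initiation factor genes mtif2 (26.8 ± 2.43 to 18.1 ± 1.86 CPM) and mtif3 (13.8 ± 0.885 to 8.58 ± 1.51 CPM) fell without overlap, as did the peptidyl-tRNA hydrolase gene ptrh2, with 14.8 to 24.3 CPM in wild type and 9.68 to 11.9 CPM in mutant libraries. Their log2 fold changes were -0.56, -0.68 and -1.02. The genes of the mitochondrial amidotransferase that makes glutaminyl-tRNA, gatb, gatc and qrsl1, did not pass, with log2 fold changes of 0.16, -0.29 and -0.20. The methionyl-tRNA formyltransferase gene mtfmt, the mitochondrial elongation factor genes tufm and tsfm, and trnt1, which adds the CCA end to tRNAs, did not pass either. The count of risers was 3 rather than 5 without wild-type library 2, without wild-type library 3 or without mutant library 3.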

How the data were processed

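The authors deposited a table of unscaled expected counts, with genes as rows and libraries as columns. Per the submitters' processing notes, the tools were Trimmomatic, STAR 2.7 and RSEM and the build was danRer11. Whether counting used strand, and which annotation it used, is not given in the sources used here. Reads shared by similar genes may be divided between them. Per the labels' protocols, ribosomal RNA was depleted and cDNA was made with random primers.

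The deposited expected counts were rounded, filtered with filterByExpr (22467 of 36351 rows kept), scaled by TMM and tested for genotype by glmQLFTest after a robust glmQLFit (edgeR 4.0.16, R 4.3.3). Tests were two-sided, with a threshold of 0.05 on the Benjamini-Hochberg adjusted p. The SE is the log2 fold change divided by the square root of F. Levels are CPM after TMM. The procedure was first run on simulated counts, drawn independently for each gene and library. They lack the variation that many genes share between the real libraries, and their outcome is not used as support here. The count ratios used a prior of 0.5. Chi-square per degree of freedom was 5.80 between wild-type libraries 1 and 3, and 22.48 to 145.1 between the other pairs within a genotype. No library was therefore counted as a copy, but these values cannot show that the pools are independent.

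The members and lists were chosen with earlier results of these data known. Named in full were the 6 cytosolic genes with the smallest p, those that did not pass, the mitochondrial genes that passed and the next 3, tarsl2 and the scaffold genes. nars, iars, aars and kars were added after their values were seen. hars was left out of the genes serving both compartments, since human cells have a separate HARS2 gene. The planned promoter motif search was not run, and no coordinates or sequences are given, because no sequence of the files' build was used here.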

Additional observations from a re-analysis of the deposited data

Results flagged for a closer look

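Libraries standing apart from the other 3 of their genotype were sought by Dixon's test in 132 sets of 4 libraries, where chance gives about 1 in 20, and 13 were found. The sets share values, since the ratios and sums are built from the same genes, so the 13 are not independent of each other. Mutant library 1 was low for the cytosolic sum (5382 CPM, others 6116 to 6144), for aars (526 CPM, others 683 to 695), kars (392 CPM, others 592 to 621), rars (86.5 CPM, others 107 to 110.2) and fars2 (0.968 CPM, others 4.93 to 5.49). The same library was low for the log2 ratio of eprs to pars2 (6.13, others 6.89 to 7.04) and high for those of phenylalanine (8.72, others 6.18 to 6.45) and leucine (4.92, others 3.68 to 3.77). It had the highest ribosomal protein share, 14.5% of counts, whose part in these values was not tested. Wild-type library 4, with the lowest share in its genotype (8.04%), was high for the log2 ratios of cars to cars2 (2.12, others 1.21 to 1.26) and vars to vars2 (2.46, others 2.06 to 2.11). The remaining values were farsa in mutant library 2 (232 CPM, others 259 to 263), tars in mutant library 4 (218 CPM, others 234 to 236) and ptrh2 in mutant library 3 (11.9 CPM, others 9.68 to 9.89).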

How the results depend on the processing

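All 19 cytosolic calls held under each of the 15 alternatives run, with adjusted p up to 0.0303. These were the DESeq2 1.42.0 Wald test, RLE size factors, library totals, no filter, at least 10 counts in all 8 libraries, the replicate number as a block, each library left out, and the ribosomal protein share as a covariate (chosen after seeing the data). Leaving out each library gave 19 to 20 cytosolic genes higher and 0 lower, 0 to 1 mitochondrial genes higher and 0 to 3 lower, 3 to 5 partners higher and 4 to 5 lower, and 10 to 11 amino acids with a separated ratio. Over all genes the counts were 2630 to 4080.0 higher and 2680 to 4522 lower. These were 11.5% to 17.8% and 11.7% to 19.7% of the genes tested in each fit. With library totals, 0 mitochondrial genes were higher and 2 lower, beside 14.1% and 17.2% of all genes tested. The replicate block left 0 mitochondrial genes higher (sars2 edgeR adjusted p = 0.0741), beside 15.7% of all genes tested. Deviations from the genotype means correlated between same-numbered libraries at 0.74, 0.15, -0.33 and 0.049 for numbers 1 to 4. Wild-type library 4 and mutant library 2 reached 0.76. Such correlations cannot decide whether same-numbered libraries share a clutch or batch. With the covariate, 5627 genes (25%) were higher and 6044 (26.9%) lower, with 2 mitochondrial genes higher and 2 lower. The sign turned for nars2 without wild-type library 1 (-0.022) and with the covariate (-0.0034), and for rars2 without mutant library 1 (-0.16). With single libraries left out these genes reached 0.27 (nars2) and 0.37 (rars2), and neither was called. The causes were not tested. The promoter motif alternative was not run. Among the mitochondrial genes depth was lowest for fars2 and nars2, with as few as 23 and 34 counts in a library.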
